A study of Mus musculus with 8 samples.

Results

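Cholesterol synthesis was followed through 7 enzyme genes, Hmgcs1, Idi1, Fdps, Fdft1, Sqle, Lss and Cyp51, whose transcription is under the control of the sterol-sensing factor SREBP2. They were taken by gene symbol from a table of 22504 mouse genes, and all 7 were found and passed the limit on low values that 10244 genes passed. None of the 7 passed the test at an adjusted p under 0.05 between the 3 kinds of liver injury, and Fdps came nearest, at 0.061 after severe injury. Within 2 of the 3 groups, however, the 7 genes were high together in 1 mouse and low together in another.

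The mice lacked fumarylacetoacetate hydrolase (Fah-/-, on the 129S4 background), the last enzyme of tyrosine breakdown. They stay healthy on the drug NTBC, which blocks an earlier step, and were kept on 7.5 mg/L in the drinking water. In moderate chronic liver injury the drug was cut to 2.5% of its dose for 8 weeks (the 8-week group, C 8w in the plots, mice 1a, 2a and 3a) or for 12 weeks (the 12-week group, C 12w in the plots, mice 2e and 3e), and in the third group 8 weeks at 2.5% were followed by 4 weeks with no drug, which gives severe injury (the severe-injury group, C 8w + A 4w in the plots, mice C096, C097 and C098). The tissue was labelled liver for the 8-week group and the severe-injury group and tumor for the 12-week group, so the longer exposure and the tumor tissue cannot be told apart, and the ages were not given. The study describes the samples as individual animals. Every animal was Fah-/- and there was no wild-type sample, so the FPKM of Fah (15.6 to 16.8 in the 8-week group, 5.02 to 6.36 in the severe-injury group and 13.5 to 14.4 in the 12-week group) checks no label.

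Expression was given as FPKM, fragments scaled to the length of the transcript and to the size of the library, a level per length that can be compared between genes. The FPKM values of a sample summed to between 324735 and 399342 and no counts were used, so the depth behind each value is unknown. The text on RNA extraction names retinas, but 8 of 10 retina marker genes were below an FPKM of 0.1 in all 8 samples, and hepatocyte markers other than Alb summed to between 12670 and 20880. Alb, the gene of serum albumin, was listed at 0 in all 5 samples of the 8-week group and the 12-week group and at 12946 to 16950 in the severe-injury group, and Gapdh, a glycolysis enzyme, was at 0.0980 to 0.247 against 68.2 to 99.9. Ppia was at 0.408 to 0.533 in these 5 samples and at 761 to 848 in the severe-injury group. Whether Alb, Gapdh and Ppia were quantified in another way in the 5 samples was not tested. These 5 samples also carry another kind of sample code than the 3 of the severe-injury group. A difference in handling and the severe injury therefore cannot be told apart. The samples are pieces of whole tissue, in which fewer cells of a type and less RNA per cell cannot be told apart.

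Cells build cholesterol from acetyl-CoA by way of mevalonate, the isoprenoid units, squalene and lanosterol, and the liver is a main site of this synthesis. When sterols in the endoplasmic reticulum run low, SCAP carries the SREBP proteins to the Golgi, where proteases free the part that enters the nucleus and switches on the enzymes of the pathway together. When sterols are plentiful, INSIG proteins hold the complex back. Among the 7 genes, Hmgcs1 makes HMG-CoA, Idi1 interconverts the isoprenoid units, Fdps joins them to farnesyl diphosphate, Fdft1 makes squalene, Sqle oxidises it, Lss closes the ring system to lanosterol and Cyp51 begins its trimming towards cholesterol.

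SREBP proteins bind the sterol regulatory element, usually beside sites for NF-Y (CCAAT) and Sp1 (GGGCGG), and the stretch of DNA before the start of these genes is shown because they moved together between mice. The 250 bases before the annotated start were matched by symbol in RefSeq (GRCm38.p6) for 4 of the 7 genes, and Fdps, Fdft1 and Sqle were not matched. Sequences are given from 5′ to 3′ on the strand of the gene, and capitals mark the letters of a searched motif on either strand.
Hmgcs1 (chr13:119690101-119690350, plus strand): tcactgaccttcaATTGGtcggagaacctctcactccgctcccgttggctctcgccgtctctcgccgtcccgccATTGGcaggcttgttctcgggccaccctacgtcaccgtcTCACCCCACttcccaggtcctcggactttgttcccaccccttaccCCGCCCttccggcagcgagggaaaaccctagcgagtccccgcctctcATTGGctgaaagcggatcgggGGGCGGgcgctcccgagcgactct
Idi1 (chr13:8885356-8885605, plus strand): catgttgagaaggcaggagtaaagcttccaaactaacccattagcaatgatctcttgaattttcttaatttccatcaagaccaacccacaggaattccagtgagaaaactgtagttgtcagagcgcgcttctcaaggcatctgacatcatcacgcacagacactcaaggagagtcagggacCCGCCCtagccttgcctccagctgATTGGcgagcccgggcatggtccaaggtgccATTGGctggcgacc
Lss (chr10:76531355-76531604, plus strand): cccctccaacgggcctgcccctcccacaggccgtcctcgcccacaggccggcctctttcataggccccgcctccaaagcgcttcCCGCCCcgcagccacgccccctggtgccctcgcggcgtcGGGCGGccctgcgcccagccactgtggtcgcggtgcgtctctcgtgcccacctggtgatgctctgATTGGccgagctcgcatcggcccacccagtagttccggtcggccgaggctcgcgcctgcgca
Cyp51 (chr5:4104698-4104947, minus strand): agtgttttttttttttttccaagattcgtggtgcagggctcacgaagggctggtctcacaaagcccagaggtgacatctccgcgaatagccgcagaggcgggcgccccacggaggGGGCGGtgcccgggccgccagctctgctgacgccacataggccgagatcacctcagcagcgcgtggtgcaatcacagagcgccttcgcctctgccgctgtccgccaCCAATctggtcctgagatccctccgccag

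All 4 windows held CCAAT and all 4 held GGGCGG, which 33.8% and 32.7% of the 32851 windows of this length also held. The element TCACNCCAC, found in 1.05% of all windows, was present in 1 of the 4, as TCACCCCAC starting 137 bases before Hmgcs1. The form of this element with an A before it, present in 0.192% of all windows, and the E-box CACGTG, present in 6.02%, were in none of the 4. The 3 motifs marked in capitals shared no bases in these windows. A match describes the letters only, and the absence of one says only that these letters are not in this window.

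Hmgcs1 (ENSMUSG00000093930) had the highest mean level of the 7 in each group. Its FPKM was 75.1, 28.4 and 29.6 in the 8-week mice 1a, 2a and 3a, 27.0, 68.4 and 22.6 in the severe-injury mice C096, C097 and C098, and 42.2 and 55.5 in the 12-week mice 2e and 3e. Mouse 1a stood above the other 8-week mice and C097 above the other severe-injury mice, and all 3 groups overlapped.

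Idi1 was among the lowest of the 7 and had the largest ratio between mice of a single group, reached in the severe-injury group. Its FPKM was 8.46, 2.05 and 2.52 in 1a, 2a and 3a, 2.54, 14.1 and 0.743 in C096, C097 and C098, and 3.65 and 5.40 in 2e and 3e. The level in C097 was 18.9 times that in C098, mice of the same group, and both 12-week mice lay between these.

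Fdps, whose product feeds both the sterol and the other isoprenoid branches, was high in the same mice but had a mean in the severe-injury group above those of both other groups. Its FPKM was 3.85, 0.911 and 1.12 in 1a, 2a and 3a, 4.68, 12.9 and 2.95 in C096, C097 and C098, and 3.71 and 2.27 in 2e and 3e. Only C098 among the severe-injury mice lay below the highest 8-week mouse, 1a, so these groups overlapped by this mouse.

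Fdft1, the first enzyme that commits farnesyl diphosphate to sterols, was the least variable of the 7. Its FPKM was 33.7, 18.0 and 22.8 in 1a, 2a and 3a, 14.7, 30.9 and 13.6 in C096, C097 and C098, and 17.8 and 25.9 in 2e and 3e. The same mice, 1a and C097, were the high ones, and the groups overlapped.

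Sqle, an oxygen-requiring and rate-limiting enzyme of the sterol branch, was the member with the highest mean in the 12-week group relative to the other groups. Its FPKM was 36.7, 11.7 and 13.4 in 1a, 2a and 3a, 17.6, 38.0 and 5.84 in C096, C097 and C098, and 29.2 and 42.0 in 2e and 3e. Both 12-week mice were above 4 of the 6 other mice, and mouse 2e was below 1a and C097.

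Lss and Cyp51 act on the ring-closing step and the step after it. The FPKM of Lss was 14.2, 6.12 and 6.32 in 1a, 2a and 3a, 7.84, 11.4 and 4.67 in C096, C097 and C098, and 11.03 and 12.3 in 2e and 3e. That of Cyp51 was 32.9, 9.03 and 9.17 in 1a, 2a and 3a, 9.76, 33.5 and 4.28 in C096, C097 and C098, and 17.6 and 21.1 in 2e and 3e. For both genes 2a and 3a were nearly equal while C096, C097 and C098 were spread widely, and the 12-week mice lay within the range of the others.

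**Figure D1:**
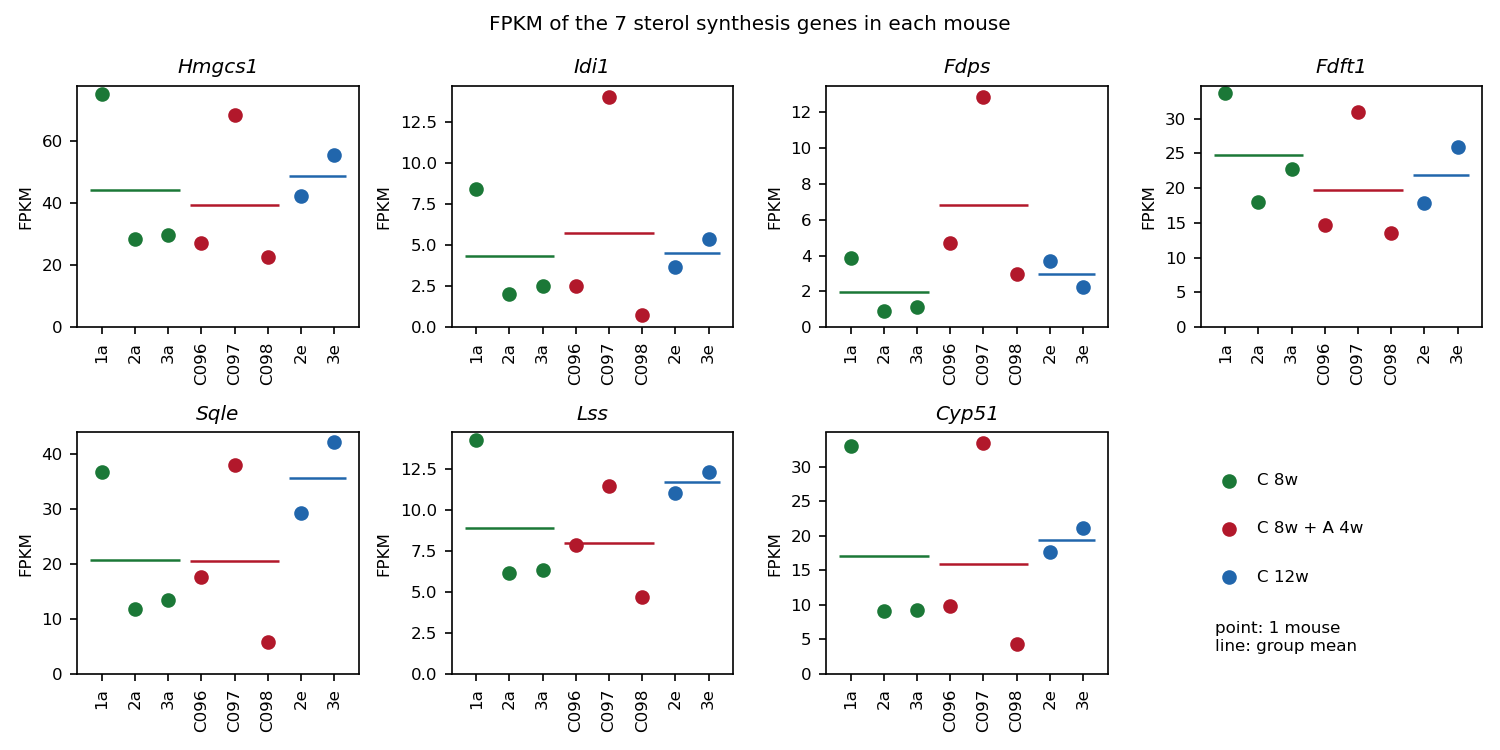
FPKM of the 7 sterol synthesis genes on a linear axis from 0, 1 point per mouse (8-week and severe-injury groups, n = 3 each, 12-week group, n = 2), with the group mean as a line. For each gene 1 mouse of the 8-week group (1a) and 1 of the severe-injury group (C097) lies above the others of its group, and the groups overlap.

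Part of the sequence of some of these genes is found in other genes, so that fragments could be split between them. The share of 50-base windows that also occur in another gene was 26.5% for Fdft1 (most of them in Ctsb), 26.2% for Fdps, 25.3% for Idi1, 11.6% for Hmgcs1, 2.77% for Cyp51, 1.86% for Lss and 0.0358% for Sqle.

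Summed over the 7 genes, FPKM was 205 in 1a against 76.2 and 84.9 in 2a and 3a, and 209 in C097 against 84.1 and 54.7 in C096 and C098. The sums of the 12-week mice were 125 and 164.5, between these extremes. All 7 genes were highest in 1a and lowest in 2a within the 8-week group, where 16.7% of the 10244 genes kept were highest in 1a and 26.0% lowest in 2a. All 7 were highest in C097 and lowest in C098 within the severe-injury group, where 49.5% of the genes kept were highest in C097 and 37.9% lowest in C098. In the 12-week group, 6 of the 7 were higher in 3e, against 60.8% of the genes kept, and Fdps was higher in 2e. The genes of a pathway are not independent replicates, so these counts describe 8 mice.

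The ratio of the highest to the lowest mouse of a group ran from 1.87 for Fdft1 to 4.22 for Fdps in the 8-week group. In the severe-injury group it ran from 2.28 for Fdft1 to 18.9 for Idi1. It was smaller in the 12-week group, a group of 2 mice, from 1.12 for Lss to 1.64 for Fdps. A distance of 1 or more in log2(FPKM + 1) between the highest and the lowest mouse was reached in the 8-week group by 6 of the 7 genes and by 0.84% of the genes kept, in the severe-injury group by 7 of 7 and by 3.89%, and in the 12-week group by 0 of 7 and by 6.83%.

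**Figure D2:**
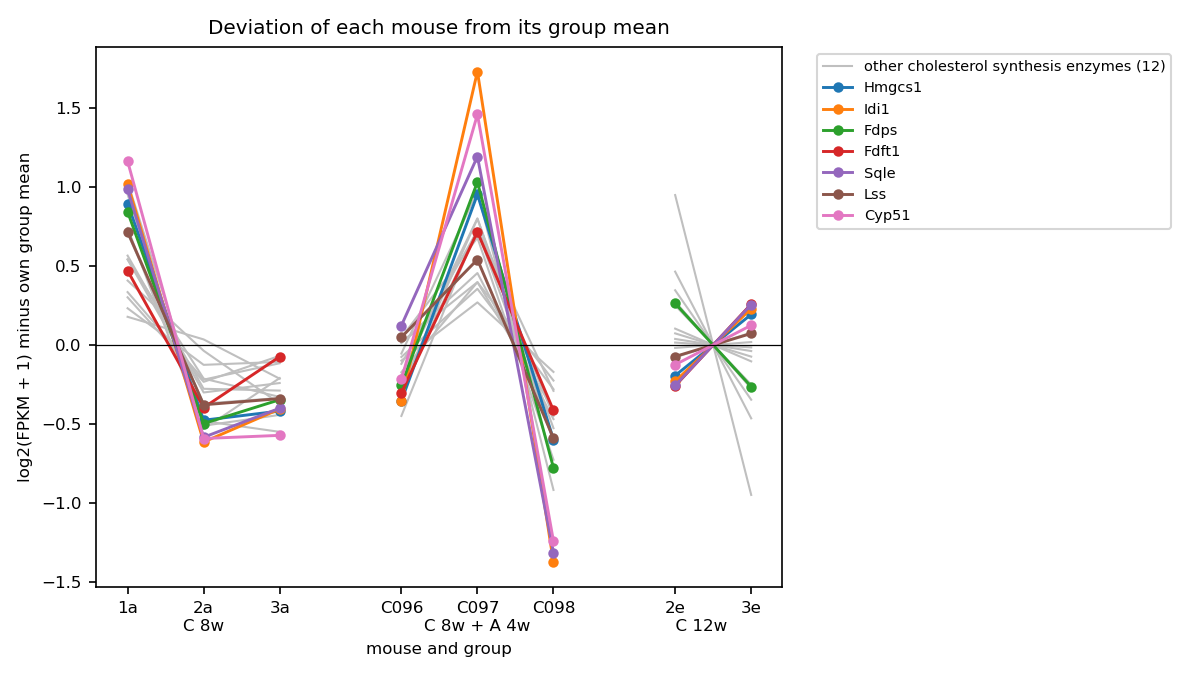
Deviation of each mouse from the mean of its own group, in log2(FPKM + 1), for the 7 genes (colored lines) and 12 other cholesterol synthesis enzymes (grey lines). The lines peak at 1a and C097 and 18 of the 19 fall to their lowest severe-injury value at C098, whereas in the 12-week group they cross.

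The spread between mice of the same group, as the pooled within-group SD on the log2(FPKM + 1) scale, had a median of 0.769 over the 7 genes and 0.175 over all genes kept. Idi1 had an SD of 1.16, which 0.293% of the genes kept exceeded, and Cyp51 had 1.08, exceeded by 0.43%. Sqle (0.978), Fdps (0.770) and Hmgcs1 (0.732) were exceeded by 0.605%, 1.41% and 1.66% of the genes. Lss (0.535) and Fdft1 (0.509) were the steadiest of the 7, exceeded by 4.22% and 4.70%. The spread depends on the level of a gene, and among genes of similar mean FPKM (within 2-fold) the shares were 0.0936% for Idi1, 0.564% for Cyp51, 1.01% for Fdps, 1.02% for Sqle, 3% for Hmgcs1, 3.45% for Lss and 4.92% for Fdft1.

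**Figure D3:**
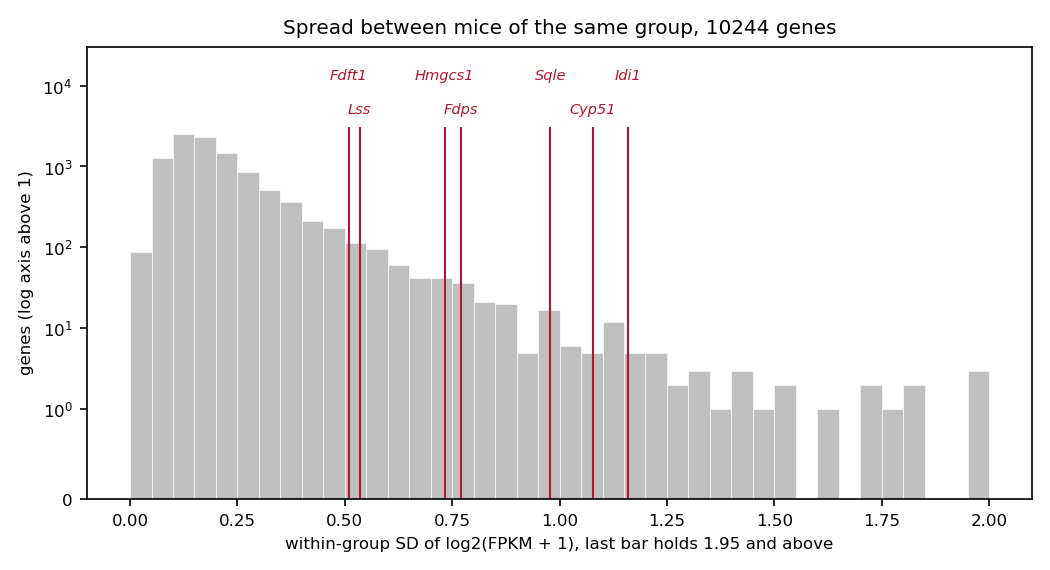
Number of the 10244 genes kept by their pooled within-group SD of log2(FPKM + 1), with the 7 sterol synthesis genes marked at their own SD. The 7 genes lie between 0.509 and 1.16, to the right of the median of all genes at 0.175.

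The rest of the pathway was high in the same mice. Of 13 other enzymes of cholesterol synthesis, 12 passed the limit on low values, and Mvd, which makes isopentenyl diphosphate, was listed at 0 in all 8 samples. All 12 were highest in 1a within the 8-week group and in C097 within the severe-injury group, and 11 of 12 were lowest in C098. In the 12-week group, 9 of the 12 were higher in 2e, the opposite of 6 of the 7 genes. Their median within-group SD was 0.519, below that of the 7 genes, while the fatty acid synthesis list had 0.615, the SREBP processing list 0.308 and the uptake and trafficking list 0.182.

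Being highest in both 1a and C097 was shared by 797 genes, or 7.78% of the genes kept. Of these, 12 genes (0.117% of the genes kept) also spanned 1 log2 unit or more in both groups, a limit chosen after the values were seen. Among them were 6 of the 7 sterol genes, all but Fdft1, and 3 other enzymes of the pathway, Msmo1, Nsdhl and Dhcr7. Msmo1, the methyl sterol oxidase, had an FPKM of 80.9, 27.6 and 26.3 in 1a, 2a and 3a, 28.6, 59.4 and 15.3 in C096, C097 and C098, and 27.9 and 25.1 in 2e and 3e. Csad, an enzyme of taurine synthesis, and Csrp3, a muscle LIM protein, were 2 members of this set that belong to no sterol list.

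The profile over the 8 mice was also compared with every gene kept, by the root mean square difference in log2(FPKM + 1) from the mean profile of the 7, each centred on its own mean. Each of the 7 is part of that mean, so it was set against the mean of the other 6 instead. Hmgcs1 then lay at 0.195, Lss at 0.309 and Cyp51 at 0.314, with 0 genes from outside the 7 nearer, and Idi1 at 0.358, Sqle at 0.409 and Fdft1 at 0.431, with 1 to 3 nearer. Outside the 7, the genes nearest to the mean of all 7 were Rdh11, a retinol dehydrogenase, at 0.360, Msmo1 at 0.387, Aacs, which activates acetoacetate for lipid synthesis, at 0.404, and Aqp8, a water channel, at 0.442. Rdh11 had an FPKM of 11.5, 5.94 and 6.81 in 1a, 2a and 3a, 6.15, 10.96 and 4.98 in C096, C097 and C098, and 14.0 and 11.8 in 2e and 3e. Fdps stood apart at 0.742 from the mean of the other 6, with 5833 genes nearer. This distance includes differences between group means, and profiles were not scaled, so nearer genes need not share the order of mice. From its own group mean, Fdps deviated by 0.845 in 1a and 1.033 in C097, against 0.872 and 1.091 for the mean of the 7. In 2e and 3e it deviated by 0.264 and -0.264, against -0.125 and 0.125.

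Markers of other cell types were set beside these mice. All 8 macrophage markers were highest in C097 within the severe-injury group, against 49.5% of the genes kept. Their summed FPKM was 416 there, against 124 in C096 and 113 in C098. In the 8-week group the macrophage sum was 147 in 1a, the lowest of its group, against 180 in 2a and 163 in 3a. Of the 8 markers, 6 were lowest in 1a, against 51.9% of the genes kept. Stellate and fibroblast markers summed to 137 in C097 against 87.0 and 122 in C096 and C098, and to 88.4 in 1a against 82.7 and 94.0. Of the 11 hepatocyte markers kept, 9 were highest in 1a, against 16.7% of the genes kept. In the severe-injury group 3 were highest in C097 and 7 in C098, the mouse lowest for the sterol genes, against 49.5% and 17.1%. In the 12-week group the cholangiocyte markers summed to 340 in 3e and 32.5 in 2e, against at most 46.5 in the other mice, but Spp1 alone made up 311 of the sum in 3e and was at 22.2 in 2e. The part of these cell types in the levels of the sterol genes was not tested.

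The first group comparison asks whether adding 4 weeks of severe injury to chronic injury changed the pathway. The severe-injury mice also had 4 more weeks of treatment, so the added time and the severe injury cannot be told apart. None of the 7 genes passed the test between the severe-injury group and the 8-week group (limma on log2(FPKM + 1), Benjamini-Hochberg adjusted p under 0.05), whereas 39.4% of all genes tested did. Differences on the log2 scale, severe minus chronic, had a median of -0.16 over the 7 genes and of 0.12 over all genes. At an unadjusted p under 0.05, 1 gene of the 7 passed, Fdps, against 5071 of all 10244 genes tested. Of all calls 64.2% were higher in the severe-injury group, and 46.7% with median-ratio scaling. Intervals are 95% intervals from the same fit.

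Fdps had a mean FPKM of 6.83 ± 5.30 (SD, n = 3) in the severe-injury group and 1.96 ± 1.64 (SD, n = 3) in the 8-week group. The log2 difference was 1.33 (SE 0.49, interval 0.20 to 2.45, limma adjusted p = 0.061). Without 1a the difference was 1.75 with an adjusted p of 0.0361 by limma, and without C098 it was 1.72 with an adjusted p of 0.036, whereas without C097 it was 0.81 (adjusted p = 0.16) and without 2a 1.08 (adjusted p = 0.177). The call therefore depended on which mouse was left out. Because 26.2% of the 50-base windows of Fdps transcripts also occur in another gene, most of them in Gm43738, its values are given too. The FPKM of Gm43738 was 1.73, 1.05 and 1.29 in 1a, 2a and 3a, 3.54, 4.77 and 1.53 in C096, C097 and C098, and 2.14 and 1.86 in 2e and 3e. How fragments were divided between these genes was not given in the sources used here, so the level of Fdps is uncertain.

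The other 6 genes had differences between -0.37 and -0.04. Hmgcs1 had a mean FPKM of 39.4 ± 25.3 (SD, n = 3) in the severe-injury group and 44.4 ± 26.7 (SD, n = 3) in the 8-week group, a log2 difference of -0.19 (interval -1.26 to 0.88, limma adjusted p = 0.769). Cyp51 had 15.8 ± 15.5 and 17.0 ± 13.8, a difference of -0.27 (interval -1.83 to 1.29, limma adjusted p = 0.773). With intervals this wide, changes of more than 2-fold in either direction remained possible for Idi1, Sqle and Cyp51. Fdft1 had the narrowest interval, -1.13 to 0.39 around -0.37 (limma adjusted p = 0.406). Leaving out 1 mouse at a time moved its difference between -0.73 without C097 and -0.13 without 1a. Leaving out 1a or C098 turned the differences of Hmgcs1, Idi1, Sqle, Lss and Cyp51 positive, and leaving out C096 that of Idi1.

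Between the 12-week group and the 8-week group, longer chronic injury with tumor was compared with the shorter one. Again none of the 7 passed, against 19.2% of all genes tested. None had an unadjusted p under 0.05, against 3842 of all 10244 genes. The median difference, 12-week minus 8-week group, was 0.42 over the 7 genes and 0.12 over all genes. Sqle had the largest difference, with a mean FPKM of 35.6 ± 9.07 (SD, n = 2) in the 12-week group and 20.6 ± 14.0 (SD, n = 3) in the 8-week group. Its log2 difference was 0.92 (SE 0.69, interval -0.66 to 2.51, limma adjusted p = 0.358). Differences of the other genes lay between -0.15 for Fdft1 and 0.54 for Fdps. Without 1a they were larger for Sqle (1.41), Cyp51 (1.004), Fdps (0.96), Lss (0.81) and Hmgcs1 (0.72), and without 2a smaller for Hmgcs1 (0.03), Cyp51 (0.125), Lss (0.26) and Fdps (0.29), with none of the 7 called.

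None of the 7 passed between the severe-injury group and the 12-week group, where 32.8% of all genes tested did. None had an unadjusted p under 0.05, against 4520 of all 10244 genes. The median difference, severe-injury minus 12-week group, was -0.46 over the 7 genes and 0.01 over all genes. Sqle had a log2 difference of -1.08 (SE 0.69, interval -2.67 to 0.51, limma adjusted p = 0.266), and Fdps had 0.79 (SE 0.55, interval -0.47 to 2.04, limma adjusted p = 0.305). Without C097 these became -1.68 for Sqle and 0.27 for Fdps, and without C098 -0.42 and 1.18. Without 3e that of Fdps was 0.52, and without any single mouse neither gene passed. The 3 comparisons share samples with each other, so their differences are not independent. In mean FPKM, the 12-week group was the highest group for Hmgcs1, Sqle, Lss and Cyp51, the 8-week group for Fdft1 and the severe-injury group for Idi1 and Fdps, and no neighbouring groups in these orders passed the test. The mean of Idi1 was raised by C097, and on the log2 scale the severe-injury group was the lower one in both comparisons (-0.04 and -0.27).

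**Figure D4:**
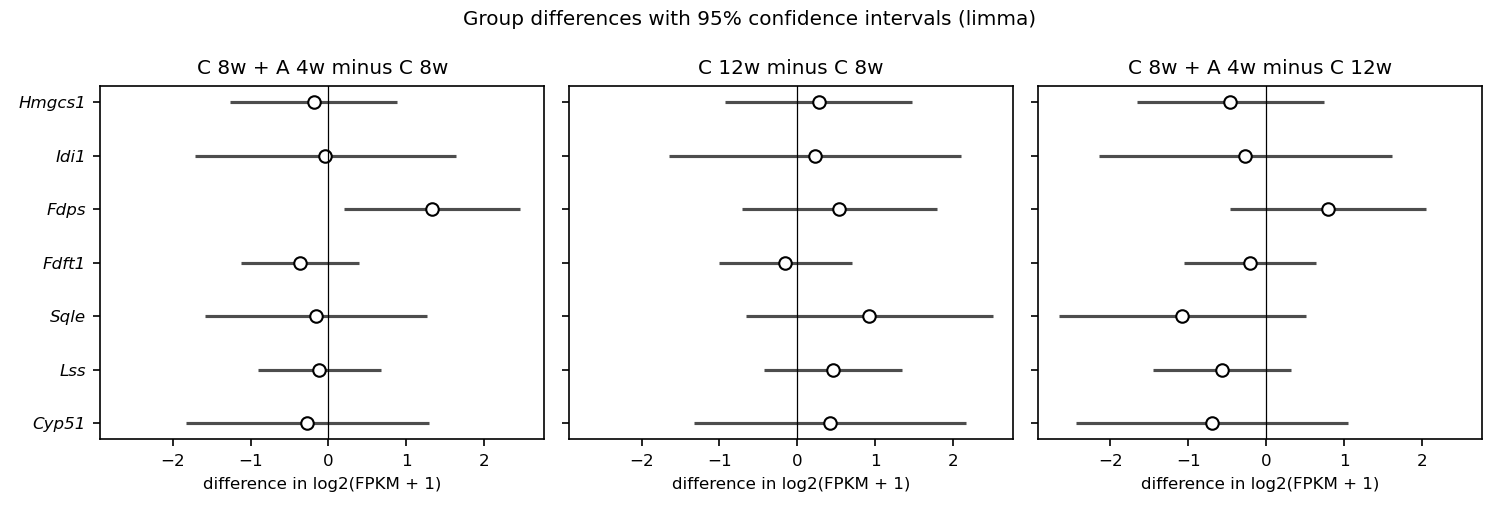
Differences between groups in log2(FPKM + 1) for the 7 genes with 95% intervals from limma, in the 3 comparisons. Of the 21 intervals only that of Fdps between the severe-injury group and the 8-week group (0.20 to 2.45) lies off 0.

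Ratios within a sample were used to see which genes kept step with Hmgcs1. The FPKM of Fdps divided by that of Hmgcs1 was 0.0512, 0.0321 and 0.0380 in 1a, 2a and 3a, 0.173, 0.188 and 0.130 in C096, C097 and C098, and 0.0880 and 0.0408 in 2e and 3e. All 3 ratios of the severe-injury group were above all 5 others, with no test since the ratio was chosen after the values were seen. How many other genes separate in this way was not counted, and 25.3% of all genes were called higher in this group than in the 8-week group. The same 3 samples also differed from the 5 others in the listed levels of Alb, Gapdh and Ppia. Of the sequence windows of Fdps, 26.2% occur in another gene. Whether a difference in quantification explains these ratios was not tested. The ratio of Sqle to Hmgcs1 was 0.489, 0.412 and 0.454 in 1a, 2a and 3a, 0.650, 0.555 and 0.258 in C096, C097 and C098, and 0.692 and 0.758 in 2e and 3e. The 12-week ratios of Sqle were the highest of the 8, and the lowest was in C098.

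Several of the other synthesis enzymes did differ between groups. Of the 12 tested, 4 were lower in the severe-injury group than in the 8-week group and none was higher, against 14.1% of all genes lower, with a median difference of -0.81. Tm7sf2, a sterol reductase that acts after Cyp51, fell from a mean FPKM of 13.9 to 2.16 (log2 difference -2.30, SE 0.35, limma adjusted p = 0.00138). Its FPKM was 19.9, 11.4 and 10.4 in 1a, 2a and 3a and 2.02, 3.68 and 0.765 in C096, C097 and C098, with no overlap, and 9.87% of its 50-base windows occur in another gene, Vps51. Sc5d, the lathosterol oxidase, fell by 1.54 on the log2 scale (limma adjusted p = 0.0416), Ebp, a sterol isomerase, by 1.02 (adjusted p = 0.0115) and Mvk, mevalonate kinase, by 0.72 (adjusted p = 0.0455). The count depended on single mice. It was 1 without 1a, 2 without 3a, C096 or C098, and 7 without C097.

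Markers of some cell types moved in the same comparison. Of 6 endothelial markers tested, 2 were lower and 1 was higher in the severe-injury group. Of 7 stellate and fibroblast markers 1 was lower, and none of the 8 macrophage markers was called. Of the 11 hepatocyte markers tested, 7 were lower and 1 higher in the severe-injury group than in the 8-week group, against 14.1% and 25.3% of all genes, with a median difference of -1.11. Against the 12-week group 4 were lower and 1 higher, against 15.4% and 17.4% of all genes, with a median of -0.35. The lower counts ran from 4 to 9 and from 1 to 6 over the alternatives, the fewest being with no filter on low values in the first comparison and with only the groups compared fitted in the second. Of 5 cholangiocyte markers tested, 2 were higher and none lower than in the 8-week group, with a median of 1.05. Their higher count ran from 0 to 5 over the alternatives. It was 5 without 2e or 3e or with only the groups compared, and 0 at an FPKM of at least 10, where 1 of these markers was left. Between the 12-week group and the 8-week group, 3 of the 11 hepatocyte markers were lower and none was higher. In that comparison 4 of the 5 cholangiocyte markers were higher and none was lower, against 12.2% and 6.98% of all genes. The part of these cell types in the differences of the synthesis, SREBP, efflux and fatty acid genes was not tested.

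Against the 12-week group, 5 of the 12 were lower in the severe-injury group, against 15.4% of all genes lower. They were Tm7sf2 (log2 difference -2.10, limma adjusted p = 0.00463), Sc5d (-2.15, adjusted p = 0.0208), Nsdhl (-1.52, adjusted p = 0.0461), Ebp (-1.24, adjusted p = 0.00936) and Mvk (-0.87, adjusted p = 0.0399). This count was 2 without C096 or C098 and 3 without 3a, and ran from 2 to 7 over the alternatives. Between the 12-week group and the 8-week group none of the 12 passed by limma, against 19.2% of all genes tested. None of the 12 had an unadjusted p under 0.05, against 3842 of all 10244 genes.

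**Figure D5:**
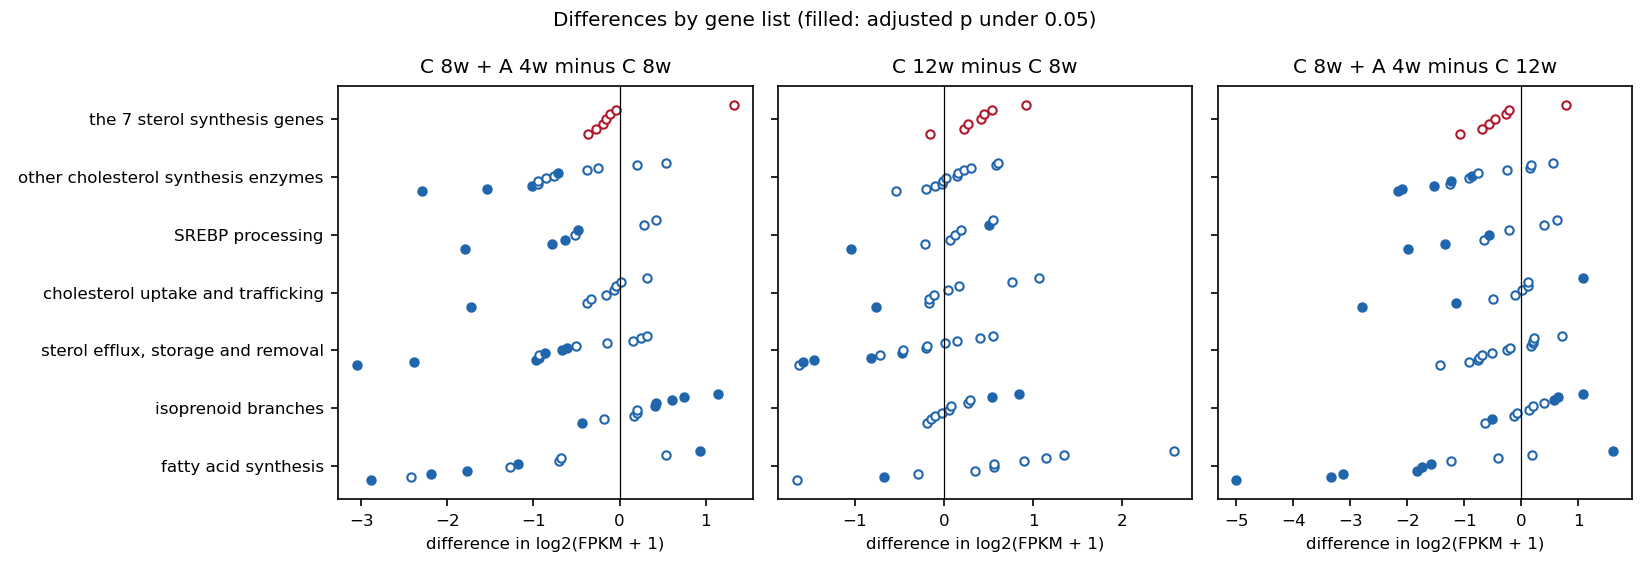
Differences between groups in log2(FPKM + 1) for every tested gene of the sterol and fatty acid lists, 1 point per gene, in the 3 comparisons. The other cholesterol synthesis enzymes have a median of -0.81 between the severe-injury group and the 8-week group, and the 7 genes have -0.16.

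Among 7 genes that carry or process the SREBP proteins, 4 were lower in the severe-injury group than in the 8-week group and none was higher, against 14.1% of all genes lower and 25.3% higher. Srebf1, which encodes the SREBP1 proteins that act mainly on fatty acid synthesis, fell from a mean FPKM of 50.2 to 13.9 (log2 difference -1.79, limma adjusted p = 0.00463). Insig1, itself a target of the SREBP proteins, fell by 0.78 on the log2 scale (limma adjusted p = 0.0433), Scap by 0.64 (adjusted p = 0.0194) and Mbtps1, a protease that cleaves the SREBP proteins, by 0.48 (adjusted p = 0.0104). Srebf2, which encodes SREBP2, had a mean FPKM of 8.29 against 12.2 (log2 difference -0.52, limma adjusted p = 0.0815). The count of lower genes was 2 without 1a or C096. Over the alternatives it ran from 2 to 5, and the count of higher genes from 0 to 1.

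In the same list, 3 genes were lower in the severe-injury group than in the 12-week group, Srebf1 (-1.99, limma adjusted p = 0.00579), Insig1 (-1.33, adjusted p = 0.0094) and Mbtps1 (-0.56, adjusted p = 0.0107), against 15.4% of all genes lower in this comparison. Between the 12-week group and the 8-week group, Scap was lower in the 12-week group (-1.04, limma adjusted p = 0.0103) and Mbtps2, a second protease of this step, was higher (0.51, adjusted p = 0.0316), against 6.98% of all genes lower and 12.2% higher. No gene of the list was higher without 1a, 2a, 3a or 3e, 2 were lower without 2e, and none was lower in the fit of only the samples numbered 2 and 3 with the replicate block.

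Of 8 tested genes of cholesterol uptake and trafficking, 1 was lower in the severe-injury group than in the 8-week group (2 without C097) and none was higher, a share near the 14.1% of all genes that were lower. Mylip, a ubiquitin ligase that targets lipoprotein receptors for breakdown, was lower in the 12-week group than in the 8-week group (log2 difference -0.76, limma adjusted p = 0.0188) and higher in the severe-injury group than in the 12-week group (1.08, adjusted p = 0.00201). Without 1a, 2a or 3a no gene of the list was called between the 12-week group and the 8-week group. Stard4, a carrier of cholesterol between membranes, was lower in the severe-injury group than in the 12-week group (-1.15, limma adjusted p = 0.0276). Of the 8 genes, 1 was higher and 2 were lower in the severe-injury group than in the 12-week group, against 17.4% and 15.4% of all genes. The lower count was 1 without C096 or C098, and ran from 1 to 3 over the alternatives.

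Of 13 genes for the efflux, storage and removal of sterols, all tested, 7 were lower in the severe-injury group than in the 8-week group and none was higher, against 14.1% of all genes lower and 25.3% higher. Cyp7a1, the rate-limiting enzyme of bile acid synthesis, had an FPKM of 35.3, 20.8 and 18.1 in 1a, 2a and 3a, 0.836, 3.47 and 2.27 in C096, C097 and C098, and 14.4 and 3.17 in 2e and 3e. The severe-injury group and the 8-week group did not overlap, and the log2 difference was -3.05 (SE 0.50, limma adjusted p = 0.00209). Cyp8b1, which sets the share of cholic acid, fell by 2.38 on the log2 scale (limma adjusted p = 0.00206), Nr1h3, the sterol-sensing receptor LXR alpha, by 0.97 (adjusted p = 0.0146) and Cyp7b1, an oxysterol hydroxylase, by 0.94 (adjusted p = 0.0256). The count was 3 without 1a or C096 and 4 without 2a or C098, and ran from 3 to 9 over the alternatives.

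Between the 12-week group and the 8-week group, 4 of these 13 genes were lower in the 12-week group and none was higher, against 6.98% of all genes lower and 12.2% higher. They were Cyp27a1, a sterol hydroxylase (-1.58, limma adjusted p = 0.00729), Cyp8b1 (-1.46, adjusted p = 0.0495), Lcat, which esterifies cholesterol in plasma (-0.81, adjusted p = 0.0282), and Nr1h2, the receptor LXR beta (-0.47, adjusted p = 0.0293). The count was 1 without any single 8-week mouse, 2 without C098 or 3e and 6 without 2e. Between the severe-injury group and the 12-week group, 4 of the 13 had an unadjusted p under 0.05, against 4520 of all 10244 genes. None of the 13 passed by limma, against 32.8% of all genes tested. Without C096, C097, 2e or 3e, between 1 and 4 of them passed.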

How the data were processed

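RNA sequencing of 8 Fah-/- mouse samples (8-week group, n = 3; severe-injury group, n = 3; 12-week group, n = 2) was analysed. The authors deposited 1 table of FPKM values for 22504 genes, in which 0 columns belonged to other samples. The submitters' processing notes name Bowtie 0.12.2 and mm8; the quantifier and annotation were not given in the sources used here. In each sample 45 to 55 genes had an FPKM above 0 but below 1e-06, a level that a whole fragment would reach only in an implausibly large library, so the values were taken as estimated fragments, counts were not recovered and the depth is unknown. Samples are called mice since the study describes them as individual animals, and p-values measure the spread between them.

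Gene identifiers were matched to symbols with a GENCODE M21 table (22314 matched). Genes that reached an FPKM of 1 in 4 or more samples were kept (10244). limma 3.58.1 (lmFit, eBayes with trend, R 4.3.3) was fitted to log2(FPKM + 1) of all 8 samples in 1 model of the 3 groups, two-sided, with Benjamini-Hochberg adjustment over all genes and a threshold of 0.05. Log2 differences on this scale understate changes of genes with low FPKM. The fit was tested on simulated data. Shared sequence was counted over 50-base windows of GENCODE M21 transcripts (GRCm38), and promoters came from RefSeq (GRCm38.p6), a later build than mm8; no coordinates were taken from the FPKM table.

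The members and the gene lists were chosen with earlier results of these data known. The text names all 7 members, up to 4 genes called in each comparison from each sterol list by the size of the change, and the genes nearest in profile. Outside this rule, Mvk (against the 12-week group), Srebf2, Me1, Dhcr7, Csad and Csrp3 were named after their values were seen. Values of a few single genes on these lists, and of the fifth gene nearest in profile, are not reported here. Alternatives to the scaling, pseudocount, filter, samples in the fit, replicate block and calling limit were tried.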

Additional observations from a re-analysis of the deposited data

How the results depend on the processing

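None of the 7 genes was called under the other scalings, pseudocounts, filters, calling limit, variance model or fits of only the groups compared (11 of 11 between the severe-injury group and the 8-week group, 11 of 12 between the 12-week group and the 8-week group and 11 of 11 between the severe-injury group and the 12-week group), the exception being the replicate block. Numbers 2 and 3 in the labels of the 8-week group and the 12-week group belong to different mice, and deviations of same-numbered samples had a correlation of -0.19 across genes, so the numbers were not taken as pairs. The fit with the replicate block used only the 8-week and 12-week samples numbered 2 and 3, so it also left out 1a and the severe-injury group. In it 1 of the 7, Sqle (log2 difference 1.41, limma adjusted p = 0.0285), and 252 of all genes were called between the 12-week group and the 8-week group, and Fdft1 was at 0.082. Without 1a and with no block the differences of Sqle and Fdft1 were the same, but Sqle had an adjusted p of 0.223 and 677 genes were called, so the sizes moved with the omission of 1a. Leaving out 1 mouse at a time gave 0 to 1 of the 7 in the severe-injury group against the 8-week group, with Fdps called without 1a or C098, and 0 in the other comparisons. A group left with 1 mouse was assumed to vary like the others. Over these fits the differences that changed sign ran, for severe-injury minus 8-week group, from -0.67 to 0.26 (Hmgcs1), -0.91 to 0.65 (Idi1), -0.76 to 0.50 (Sqle), -0.39 to 0.24 (Lss) and -1.004 to 0.35 (Cyp51). For 12-week minus 8-week group they ran from -0.082 to 0.74 (Idi1) and -0.41 to 0.11 (Fdft1), beside 0.03 to 0.72 (Hmgcs1), 0.27 to 0.96 (Fdps), 0.63 to 1.41 (Sqle), 0.26 to 0.81 (Lss) and 0.125 to 1.004 (Cyp51), which kept their sign, and for severe-injury minus 12-week group from -1.14 to 0.42 (Idi1) and -0.57 to 0.045 (Fdft1). Fdps ran from 0.81 to 1.75 in the first comparison and 0.27 to 1.18 in the last, where Sqle ran from -1.68 to -0.42. All genes called numbered 4034, 1962 and 3356 in the order of comparisons above. They ranged over 2469 to 5189, 677 to 3702 and 2494 to 4214 without 1 mouse, were 1844, 851 and 1625 at an FPKM of at least 10 and 1128, 533 and 1177 with a log2 difference of at least 1, and 1996 in the last comparison with only its 2 groups fitted. Median-ratio scaling moved the median of all genes from 0.12 to -0.01 in the first 2 comparisons and the share of calls that were higher from 64.2% to 46.7% and from 63.6% to 44%; scaling to the total gave 53.5%, 72.2% and 35.9%. The cause of these shifts was not tested. Of 379 values for the 7 genes under the alternatives, 358 kept their direction and side of the threshold.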

Other observations

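Of 10 tested genes of the isoprenoid branches, which use the products of Idi1 and Fdps outside sterol synthesis, 5 were higher and 1 lower in the severe-injury group than in the 8-week group, against 25.3% and 14.1% of all genes. Nus1, a subunit of the enzyme that makes dolichol precursors, had an FPKM of 14.7, 17.8 and 19.5 in 1a, 2a and 3a, 38.3, 41.0 and 38.1 in C096, C097 and C098, and 18.8 and 17.0 in 2e and 3e. The severe-injury mice lay above all others, with a log2 difference of 1.14 from the 8-week group (SE 0.12, limma adjusted p = 0.000242). Ggps1, which makes geranylgeranyl diphosphate, was higher by 0.74 (limma adjusted p = 0.00361), and Icmt, which methylates prenylated proteins, by 0.61 (adjusted p = 0.0031). The lower gene was Pdss2, of ubiquinone synthesis (-0.44, limma adjusted p = 0.0255). The higher count was 3 without 1a, 2a, C096 or C098.

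Fatty acid synthesis genes, mainly under SREBP1, fell in the severe-injury group in 4 of 10 cases against the 8-week group and in 6 of 10 against the 12-week group, with 1 gene higher in each, against 14.1% and 15.4% of all genes lower and 25.3% and 17.4% higher. Thrsp, an activator of lipogenesis, fell by 2.88 on the log2 scale against the 8-week group (limma adjusted p = 0.0243), and the desaturases Fads1 and Fads2 by 2.19 and 1.78 (adjusted p = 0.0101 and 0.0136). Fasn, the fatty acid synthase, fell by 1.18 (limma adjusted p = 0.0288). Me1, which supplies NADPH, was the gene that was higher, by 0.94 (limma adjusted p = 0.000643), and is named here after its value was seen. The lower count against the 8-week group was 1 without 1a, 2 without 2a, 3a, C096 or C098, 6 without C097 and 7 without 2e or 3e. Scd1, the stearoyl-CoA desaturase, had an FPKM of 64.6, 105 and 146 in 1a, 2a and 3a, 6.86, 20.7 and 38.1 in C096, C097 and C098, and 2145 and 167 in 2e and 3e. Its order of mice differed from that of the 7 sterol genes, with 2e far above 3e and C098 above C097.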
